A study of Caenorhabditis elegans with 6 samples.

Results

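Genes of 8 T-box transcription factors of the nematode Caenorhabditis elegans were followed in embryos without the microRNAs mir-35 to mir-41. These microRNAs are abundant in the early embryo and are encoded in 1 cluster. The 8 genes are tbx-2, tbx-8, tbx-9, tbx-11, tbx-37, tbx-38, mls-1 and mab-9, taken by gene symbol from the deposited expression table. They have 9 of the 22548 probe sets tested, and 17430 genes in all have at least 1 probe set assigned to no other gene. The gene tbx-2 has 2 probe sets and every other gene has 1. No probe set of the 8 genes is assigned to more than 1 gene in the table. The probe set of tbx-9 is of a kind that Affymetrix marks as shared between transcripts, and tbx-37 and tbx-38 encode near-identical proteins, so cross-hybridisation between related genes was not tested here. RNA of whole mixed-stage embryos was measured on 6 arrays. The tested embryos were the mir-35-41(nDf50) mutant, labelled as strain VT2935 without nEx1187, an extrachromosomal array by its name (3 arrays, called the mutant here), and the embryos they were set against were wild type N2 (3 arrays). Cultures of both groups grew with added egg yolk and spent the last 24 hours before harvest at 25 °C after growth at 20 °C. No label says that the 3 samples of a group came from separate cultures, so p-values reflect the spread between these 6 samples alone, and that spread may be technical.

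T-box proteins bind DNA through a domain first described in the mouse Brachyury protein, and in many animals they set the fate of mesoderm and other early tissues. In the worm embryo, tbx-37 and tbx-38 act redundantly in descendants of the blastomere ABa, where they allow a Notch signal to induce anterior pharynx, while an earlier Notch signal keeps them off in descendants of the sister blastomere ABp. The gene tbx-2 acts later in the same lineage, in the formation of pharyngeal muscle. The neighbouring genes tbx-8 and tbx-9 act redundantly in the development of epidermis and body wall muscle, mab-9 patterns the hindgut, and mls-1 specifies a type of nonstriated muscle of the egg-laying system. In the gene table of assembly WBcel235, tbx-8 and tbx-9 lie next to each other on chromosome III with 0 protein-coding genes between them, tbx-37 and tbx-38 lie on the same chromosome with 85 between them, and mab-9 lies on chromosome II.

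The deposited values were already normalized between arrays, with a median intensity of 119 to 127 in mutant and 113.9 to 121.2 in wild type. Mutant replicate 1 stood apart from the other mutant arrays. Its log2 values differed from those of mutant replicates 2 and 3 with an SD of 0.35 and 0.33 over all probe sets, close to the 0.37 to 0.40 between it and the wild type arrays. Mutant replicates 2 and 3 were the closest pair of arrays, with an SD of 0.16. All 13 markers of maternal transcripts, 10 of 12 probe sets of early zygotic transcripts and 11 of 12 of late embryonic collagens lay above the brightest yeast control probe set, which has no target in worms in both groups. Genes of sperm outside the msp family had 2 of 10 above it. Their summed intensity was 754 to 812 in mutant and 875 to 913 in wild type. The summed intensity of 8 probe sets of yolk and adult cuticle genes was 457 to 508 in mutant and 454 to 487 in wild type.

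Every one of the 9 T-box probe sets had a lower mean in mutant embryos than in wild type, by 0.10 to 0.64 on the log2 scale, and none passed the test (limma, 2-sided, Benjamini-Hochberg adjusted p under 0.05 over all probe sets). The test called 3.48% of all probe sets in either direction, 0.648% lower and 2.83% higher in the mutant. At an unadjusted p under 0.05, 3 of the 9 were lower, both probe sets of tbx-2 and that of tbx-9, and none higher, beside 9.55% of all probe sets lower and 9.84% higher. The median difference was -0.31 over the 9 probe sets and -0.05 over all probe sets, of which 60.7% had a lower mean in the mutant. The arrays of the 2 groups did not overlap, with the mutant lower, for both probe sets of tbx-2 and for mab-9, and this held for 13.3% of all probe sets. RNA came from whole embryos, so fewer cells of a lineage and less RNA per cell cannot be told apart. All 8 genes had means above the brightest yeast control in both groups (an intensity of 40.63 in mutant and 42.75 in wild type), though tbx-37 was close to it.

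**Figure D1:**
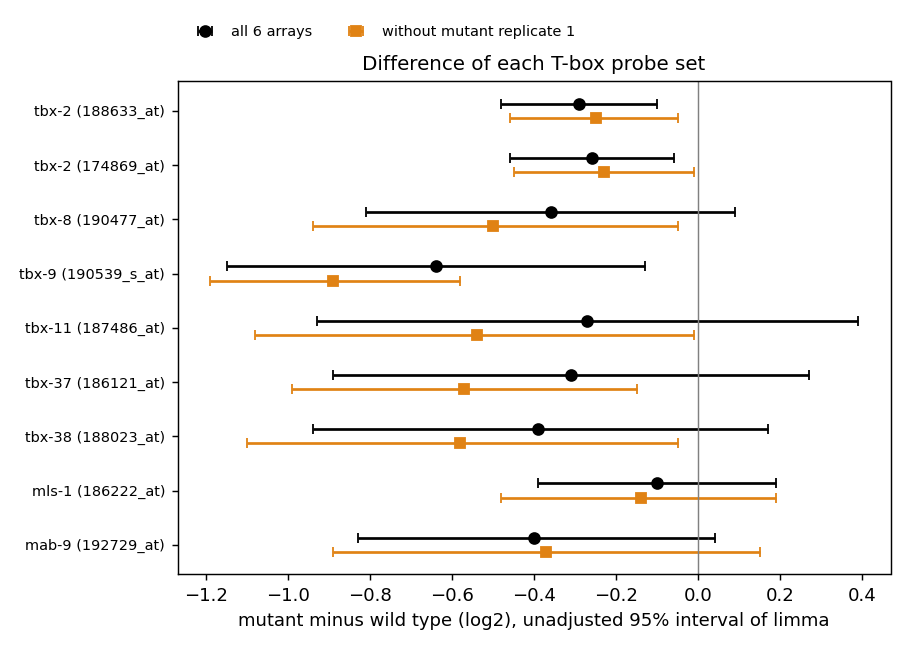
Difference in log2 intensity, mutant minus wild type, of the 9 probe sets of 8 T-box genes (horizontal axis), with the unadjusted 95% interval of limma. Circles use all 6 arrays and squares leave out mutant replicate 1. All 18 points lie below 0, and the interval of tbx-9 without mutant replicate 1 runs from -1.19 to -0.58.

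The question for each gene was whether its transcript differed between the mutant and wild type, the 1 comparison that the series title names. Among the factors of the ABa lineage, tbx-37 had intensities of 74.4, 47.3 and 40.3 in mutant replicates 1, 2 and 3, against 79.7, 56.2 and 61.0 in wild type replicates 1, 2 and 3. The array numbered 1 was the brightest in each group, and the groups overlapped because mutant replicate 1 was brighter than wild type replicates 2 and 3. The difference in log2 intensity was -0.31, with an SE of 0.24, a 95% interval from -0.89 to 0.27 and a limma adjusted p of 0.541 (n = 3 each). Its partner tbx-38 showed the same order of arrays, with 192, 134 and 123 in the mutant and 258, 159 and 172 in wild type. Its difference was -0.39 (SE 0.23, limma adjusted p = 0.432). The intervals of these partners cover ratios of mutant over wild type from 0.538 to 1.20 for tbx-37 and from 0.520 to 1.13 for tbx-38. With 1 array left out the difference of tbx-37 ran from -0.57 without mutant replicate 1 to -0.13 without mutant replicate 3, and was -0.17 without wild type replicate 1. That of tbx-38 ran from -0.58 without mutant replicate 1 to -0.17 without wild type replicate 1. None of these passed (limma adjusted p of 0.0922 or more).

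The pharyngeal muscle factor tbx-2 varied little from array to array within each group. Its brighter probe set had 495, 530 and 531 in the mutant and 655, 623 and 623 in wild type. Its dimmer one had 194, 207 and 205 in the mutant and 240, 255 and 231 in wild type. On both, every mutant array was below every wild type array. The mean log2 intensity of the brighter one was 9.02 ± 0.06 in the mutant and 9.31 ± 0.04 in wild type (SD, n = 3 each), a difference of -0.29 (SE 0.08, limma adjusted p = 0.11), or 0.819 times the wild type level with an interval from 0.718 to 0.934. The dimmer probe set gave -0.26 (SE 0.08, limma adjusted p = 0.155). Array weights of limma let an array count less the more it departs from the other arrays of its group. With them both probe sets passed, at -0.25 and -0.27 (limma adjusted p = 0.0394 and 0.0374), and 8.72% of all probe sets were called lower.

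**Figure D2:**
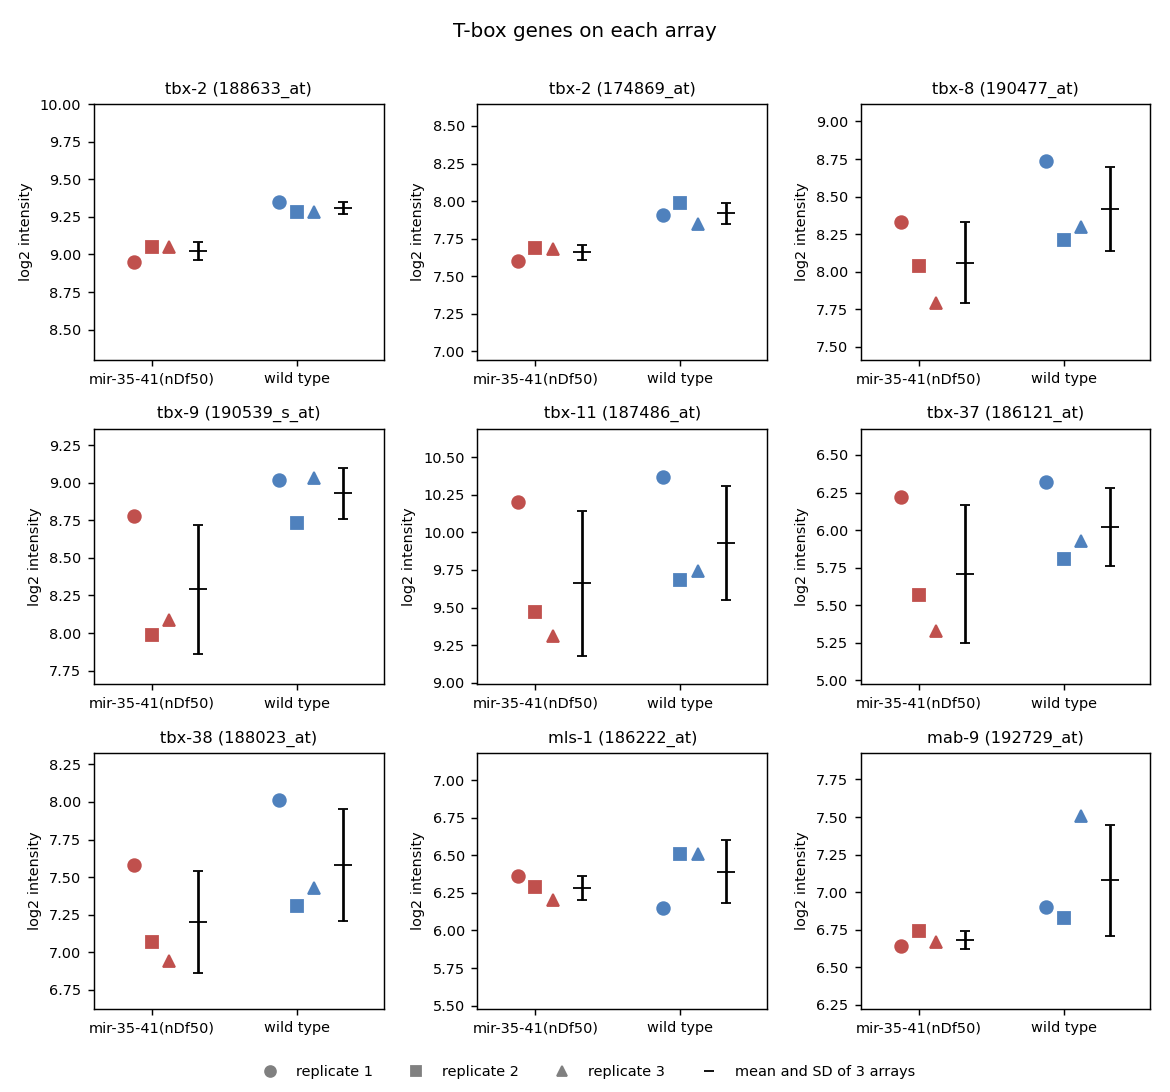
Log2 normalized intensity (vertical axes, each spanning the same log2 range) of the 9 T-box probe sets on 3 mutant and 3 wild type arrays, with symbols for replicate numbers and bars for the mean and SD of each group. The mutant arrays of tbx-2 and mab-9 all lie below the wild type arrays, while mutant replicate 1 lies among or near the wild type arrays for tbx-8, tbx-9, tbx-11, tbx-37 and tbx-38.

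Of the pair that acts in epidermis and body wall muscle, tbx-9 had the largest difference of the 9 probe sets. Its intensities were 438, 255 and 273 in mutant replicates 1, 2 and 3 and 520, 424 and 524 in wild type replicates 1, 2 and 3. Mutant replicates 2 and 3 lay below all wild type arrays, and mutant replicate 1 was brighter than wild type replicate 2. The difference was -0.64 (SE 0.22, n = 3 each, limma adjusted p = 0.173), or 0.641 times the wild type level with an interval from 0.449 to 0.915. Without mutant replicate 1 it was -0.89 (SE 0.13, limma adjusted p = 0.0112) and tbx-9 passed, as it did without both arrays numbered 1 (-0.84, limma adjusted p = 0.0114) and with array weights (-0.74, limma adjusted p = 0.0131). The shares of all probe sets called lower under these settings were 3.86%, 6.89% and 8.72%. Its neighbour tbx-8 had 323, 264 and 222 in the mutant and 428, 296 and 315 in wild type. The array numbered 1 was the brightest of each group for tbx-8 and the groups overlapped, with a difference of -0.36 (SE 0.19, limma adjusted p = 0.362). With 1 array left out it ran from -0.50 without mutant replicate 1 (limma adjusted p = 0.148) to -0.20 without wild type replicate 1 (limma adjusted p = 0.587), and was -0.23 without mutant replicate 3.

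The hindgut factor mab-9 had 99.4, 107 and 102 in the mutant, against 119, 114 and 182 in wild type. The groups did not overlap, and wild type replicate 3 was well above the other wild type arrays, with a wild type SD of 0.37 on the log2 scale against 0.06 in the mutant. The difference was -0.40 (SE 0.18, limma adjusted p = 0.298), and leaving out 1 array at a time gave -0.52 to -0.18. The muscle fate gene mls-1 had the smallest difference. It had 82.0, 78.3 and 73.8 in the mutant and 71.0, 91.0 and 91.0 in wild type, where replicate 1 was the lowest of all 6 arrays. The difference was -0.10 (SE 0.12, limma adjusted p = 0.701), and its interval covers ratios from 0.762 to 1.14. The gene tbx-11 had 1179, 708 and 635 in the mutant and 1325, 823 and 855 in wild type, so that mutant replicate 1 was brighter than wild type replicates 2 and 3. Its difference of -0.27 (SE 0.28, limma adjusted p = 0.653) was no larger than its SE. It ran from -0.54 without mutant replicate 1 (limma adjusted p = 0.184) to -0.05 without wild type replicate 1 (limma adjusted p = 0.948), and was -0.17 and -0.10 without mutant replicates 2 and 3.

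The 8 genes fell into different patterns over the 6 arrays. For tbx-8, tbx-11, tbx-37 and tbx-38 the array numbered 1 was the brightest in the mutant and in wild type, a pattern of 18.8% of all probe sets. Over the 6 arrays the log2 intensities of these 4 genes correlated with each other with Pearson's r of 0.93 to 0.98, and with those of tbx-9 with r of 0.77 to 0.85. The pairs with redundant roles were not set apart in this, with r of 0.82 between tbx-8 and tbx-9 and 0.96 between tbx-37 and tbx-38, against 0.98 between tbx-11 and tbx-37. The genes tbx-2, mls-1 and mab-9 correlated with those 4 with r of -0.16 to 0.58. These values describe 6 arrays of 2 groups that share the group difference and the common scaling.

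Markers of embryonic stage were followed over the same arrays. As deviations from the 6-array mean on the log2 scale, the 8 T-box genes had medians of 0.13, -0.24 and -0.45 on mutant replicates 1, 2 and 3, against 0.43, -0.04 and 0.09 on wild type replicates 1, 2 and 3. The median of 13 maternal transcripts was 0.24, -0.28 and -0.30 on the mutant arrays, against 0.27, 0.17 and -0.12 on those of wild type. Both medians were above 0 on the 2 arrays numbered 1 and below 0 on mutant replicates 2 and 3. They had opposite signs on wild type replicates 2 and 3. The median of 12 early zygotic transcripts, 2 of which are the T-box genes tbx-31 and tbx-32, was 0.16, -0.42 and -0.19 on the mutant arrays, against -0.01, 0.18 and 0.19 on those of wild type. Late embryonic cuticle collagens were at 0.01, 0.24 and 0.12 on the mutant arrays, against 0.00, -0.16 and -0.22 on those of wild type. The summed intensity of the maternal list was 18050 to 24278 in mutant and 20915 to 25404 in wild type. That of the early zygotic list was 4937 to 7746 in mutant and 6793 to 7634 in wild type. That of the collagens was 57011 to 60580 in mutant and 57565 to 60320 in wild type. The collagen sum is set by brighter genes of the list and cannot show changes of dim ones. The collagen genes dpy-9, dpy-5 and rol-6, named below, lay between 82.5 and 528 on all arrays. The part of embryonic stage in the T-box differences was not tested.

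**Figure D3:**
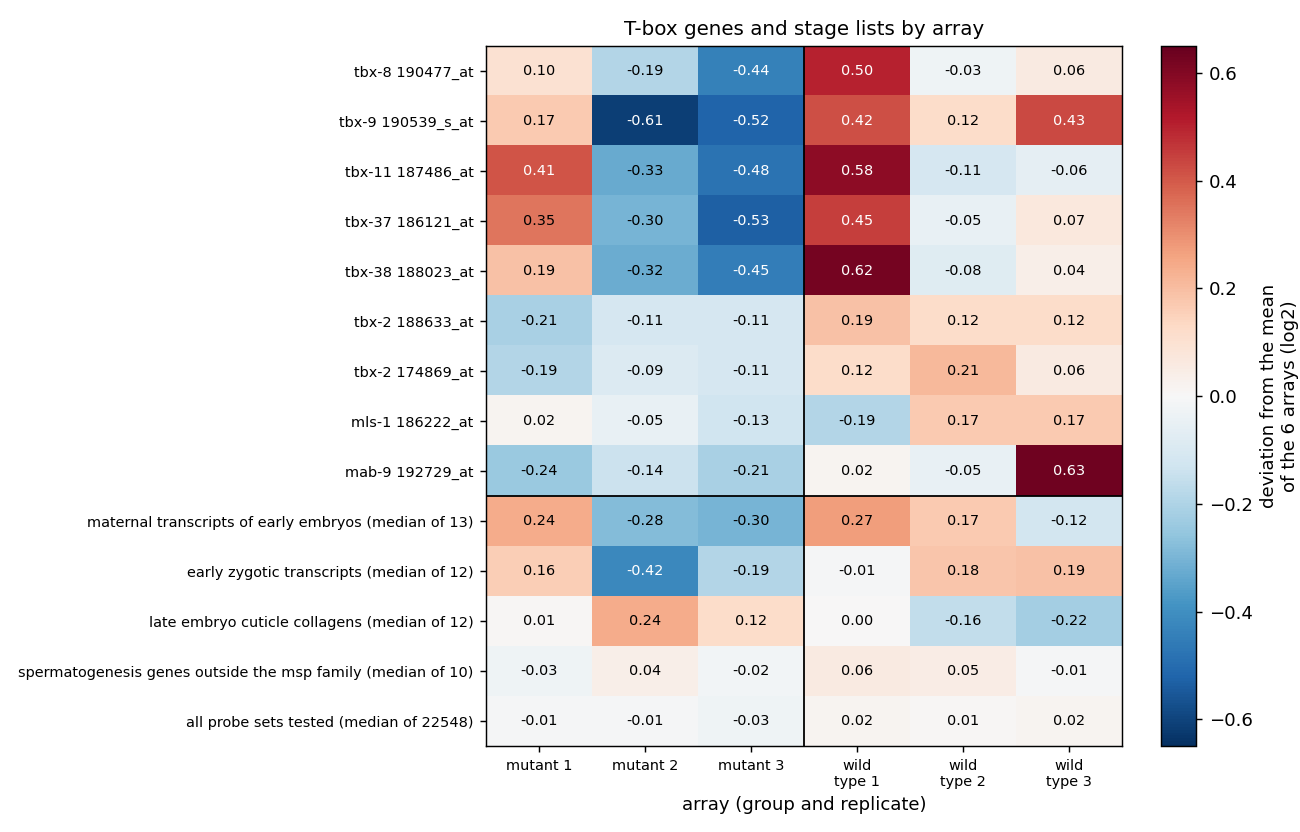
Deviation of each array (columns, 3 mutant then 3 wild type) from the mean of the 6 arrays on the log2 scale, for the 9 T-box probe sets (upper rows) and for the medians of stage and sperm lists and of all probe sets (lower rows). The T-box genes tbx-8, tbx-9, tbx-11, tbx-37 and tbx-38 range from -0.61 on mutant replicate 2 to 0.62 on wild type replicate 1, while the median of all probe sets stays between -0.03 and 0.02.

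The genes most like each T-box gene over the 6 arrays were found by Pearson's r among 14170 probe sets above the yeast controls that belong to 1 gene. With so few arrays the nearest genes were not set apart: between 11 probe sets for mls-1 and 325 for tbx-9 had r over 0.95. These were 0.0777% and 2.3% of the probe sets searched. The nearest to tbx-37 were ZK973.9, the spindle checkpoint gene bub-3 and sas-1, with r of 0.995, 0.995 and 0.993, and the nearest to tbx-38 were zipt-9, the helicase gene helq-1 and the nuclear receptor gene nhr-60, each with r of 0.996. For tbx-11 they were another T-box gene, tbx-33, then R166.2 and the kinetochore gene spdl-1, each with r of 0.995. The nuclear pore gene npp-27 (r of 0.998), Y25C1A.7 and C46A5.6 (each 0.997) were nearest to tbx-8, and sor-3 (0.998), F39B2.3 and the COP9 signalosome gene csn-4 (each 0.997) to tbx-9. The chitinase gene cht-5 (0.997), the epidermal GATA factor gene elt-3 (0.995) and mab-7 (0.994) were nearest to tbx-2. R166.3 (0.998), the translation initiation factor gene eif-3.F and the hedgehog-related gene wrt-5 (each 0.992) were nearest to mab-9, and cest-35.2, fbxb-102 (each 0.976) and rgs-5 (0.970) to mls-1.

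The rest of the T-box family comprised 14 genes with 15 probe sets, and 1 passed, beside 0.648% of all probe sets called lower and 3.48% called in either direction. The gene tbx-7 fell, with intensities of 122, 100 and 101 in the mutant against 157, 167 and 207 in wild type and no overlap of the groups. Its difference was -0.71 (SE 0.14, n = 3 each, limma adjusted p = 0.0448), and it passed in 1 of the 6 fits that left out 1 array. This was the fit without mutant replicate 1 (-0.80, limma adjusted p = 0.0203), where 3.86% of all probe sets were called lower. The identifier column gives ZK328.6 for this probe set, whereas the gene table gives ZK328.8 as tbx-7, so the assignment rests on the symbol in the file. All 15 probe sets had a lower mean in the mutant, with a median difference of -0.21, as did all 24 T-box probe sets of both sets, with a median of -0.27. Both of these are descriptions beside the 60.7% of all probe sets with a lower mean. With 1 probe set per gene, only 6 of the 13 used for these other genes were above the yeast controls in both groups.

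Several probe sets of these other genes carried little or no signal above the controls. In neither group were tbx-30, tbx-31, tbx-32, tbx-34, tbx-35, tbx-40, tbx-41 and tbx-42 above the brightest yeast control on the probe set used. They include tbx-35, a factor of the MS lineage that gives rise to posterior pharynx and muscle, at 14.5, 14 and 15 in the mutant and 15.1, 14.7 and 15.1 in wild type. The probe set of tbx-30 is shared with tbx-42, and 1 probe set each is shared between tbx-31 and tbx-32 and between tbx-39 and tbx-40. That of tbx-39 and tbx-40 was above the controls, at 121, 87.5 and 105 in the mutant and 110, 133 and 125 in wild type, and cannot tell these genes apart. Among the brighter genes, sea-1, a T-box gene that signals autosome dose in sex determination, had 1172, 608 and 641 in the mutant and 1100, 940 and 1079 in wild type. Its difference was -0.43 (SE 0.25, limma adjusted p = 0.41), and it passed without mutant replicate 1 (-0.73, limma adjusted p = 0.0124). That is the array that overlaps wild type, and 3.86% of all probe sets were called lower without it. The genes tbx-33 and tbx-43 had differences of -0.28 and -0.34, and tbx-36 and tbx-39 had -0.36 and -0.30, none past the threshold.

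**Figure D4:**
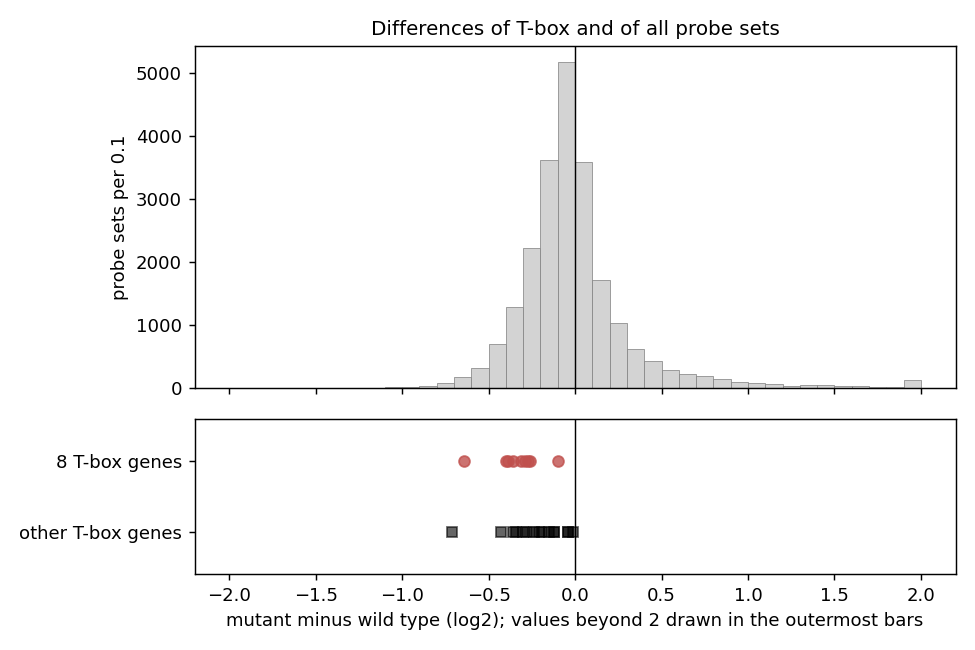
Differences in log2 intensity, mutant minus wild type (horizontal axis), for all 22548 probe sets as a histogram (upper panel) and for the 9 probe sets of the 8 T-box genes and the 15 of other T-box genes as points (lower panel). All 24 T-box points lie below 0, between -0.71 for tbx-7 and -0.01 for the probe set shared by tbx-31 and tbx-32. They include probe sets of other T-box genes that were not above the yeast controls in either group.

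Genes that act with these T-box factors were described by lists, with 1 probe set per gene. Counts at an unadjusted p under 0.05 stand beside 9.55% of all probe sets lower and 9.84% higher. Of the Notch pathway and its REF-1 family targets, which act upstream of tbx-37 and tbx-38, none of 15 probe sets passed (limma), 3 were lower and none higher at an unadjusted p under 0.05, and the median difference was -0.22. The largest differences were -0.43 for hlh-25, a REF-1 family gene whose probe set is shared with hlh-27 (114, 81.2 and 108 in the mutant against 116, 144 and 146 in wild type), and -0.40 for pen-2, a component of gamma-secretase. Of 13 genes of pharynx specification and pharyngeal muscle 1 fell, eya-1, which encodes a cofactor of the Eyes absent family, with 581, 557 and 542 in the mutant against 951, 748 and 782 in wild type. Its difference was -0.56 (SE 0.11, limma adjusted p = 0.0496). The list median was -0.04, and 3 genes were higher and 2 lower at an unadjusted p under 0.05. The largest difference of the list was a higher mean in the mutant, by 1.49, which did not pass. Of 8 genes of the EMS and MS lineages none passed (1 higher and 2 lower at an unadjusted p under 0.05, limma), with -0.50 for ceh-51, a homeobox gene of the MS lineage, and 0.44 for the maternal regulator skn-1.

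Of 12 fate factors and muscle genes of body wall and epidermis, the context of tbx-8 and tbx-9, 1 fell. This was elt-3, with 663, 777 and 738 in the mutant, against 1168, 1117 and 1015 in wild type, a difference of -0.60 (SE 0.10, limma adjusted p = 0.03). At an unadjusted p under 0.05, 3 of the list were lower and none higher (limma). Means were lower for 8 and higher for 4, up to 0.57, with a median of -0.19. For 5 probe sets every mutant array was below every wild type array, beside 13.3% of all probe sets. This count was the highest of the lists, which otherwise had 0 to 3. No hindgut factor passed among 8 (1 lower and 1 higher at an unadjusted p under 0.05, limma), with -0.68 for the Wnt gene lin-44 and 0.37 for lin-49. None of 11 genes listed for nonstriated and sex muscle passed (2 lower and none higher at an unadjusted p under 0.05, limma). The homeobox gene unc-62 and the forkhead gene let-381 of this list had -0.41 each. The SUMO pathway, whose enzymes modify TBX-2, had none past the threshold among 6 and none at an unadjusted p under 0.05 (limma), with 0.23 for aos-1. The other largest difference was that of uba-2, which was not above the yeast controls in either group. The calls of eya-1 and elt-3 each held in 1 of the 6 fits that left out 1 array, and in 6 and 11 of the 18 alternatives.

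In the lists of embryonic stage, yolk and sperm every call was a rise. Of 12 late embryonic cuticle collagens 5 rose and none fell, beside 2.83% of all probe sets that rose. The largest rises were dpy-9 at 2.03 (SE 0.12, limma adjusted p = 0.00284), dpy-5 at 1.90 and rol-6 at 1.16. The list did not move as 1, since 7 means were higher and 5 lower in the mutant, down to -0.36. At an unadjusted p under 0.05, 6 were higher and 2 lower (limma), beside 9.84% and 9.55% of all probe sets. Of 12 early zygotic transcripts sdz-24 rose by 1.57 (SE 0.29, limma adjusted p = 0.0379). The other 11 had lower means in the mutant, beside 60.7% of all probe sets. At an unadjusted p under 0.05, 4 of this list were lower and 1 higher (limma). Of 13 maternal transcripts none passed (3 lower and none higher at an unadjusted p under 0.05, limma), with -0.91 for cpg-2, an eggshell gene, and -0.55 for puf-3, an RNA-binding protein gene. The yolk protein gene vit-1 rose by 0.58 (limma adjusted p = 0.0435), alone in its list of 8 probe sets. The calls of sdz-24 and vit-1 each held in 1 of the 6 fits that left out 1 array, those of rol-6, dpy-5 and dpy-9 in 3, 4 and 6. None of the 10 sperm genes passed (1 higher and 3 lower at an unadjusted p under 0.05, limma). The largest differences were those of spe-44, not above the yeast controls in either group, and spe-10, not above them in wild type.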

How the data were processed

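The authors deposited normalized linear intensity values for each array, made with Affymetrix Expression Console per the submitters' processing notes. Its version, background correction and summarization were not given in the sources used here. In addition, the deposited series matrix holds log2 values equal to log2 of that table within 5.66e-06. Some description fields name stages of insect embryos and were not used. A common scale hides any change in total RNA per embryo.

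Of 22625 probe sets, 77 controls were left out. Groups were compared on log2 intensity, without a pseudocount or filter, with limma 3.58.1 in R 4.3.3 (lmFit and eBayes, 2-sided, no covariates), and p-values were adjusted over 22548 probe sets with a threshold of 0.05. The steps were tested on simulated data. The number of arrays limits the precision. In lists a gene is represented by its brightest probe set (mean of 6 arrays) among those assigned to it alone, or among shared ones where it has no other. Symbols were updated through a gene table of WBcel235, in which 16872 of 17430 genes were found. The files name no genome build, so no coordinates are given. The T-box genes and all lists were chosen with earlier results of these data known. Named were the 8 genes, the other T-box genes, from each other list up to 3 genes past the threshold or the 2 largest differences, and the 3 genes most like each of the 8. Alternative settings used a block of replicate numbers, arrays left out, the series matrix, quantile and median scaling, filters on dim probe sets, a pseudocount of 16, a trend with a robust fit, array weights and 1 probe set per gene.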

Additional observations from a re-analysis of the deposited data

How the results depend on the processing

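All 158 values of the 9 T-box probe sets under the alternatives were negative, though all settings reuse the same arrays. The block, the series matrix, the filters on dim probe sets, the trend with a robust fit and 1 probe set per gene left the difference itself unchanged. Their values therefore add nothing to this count. Calls appeared in 3 settings: tbx-9 without mutant replicate 1, tbx-9 without both arrays numbered 1, and tbx-9 and both probe sets of tbx-2 with array weights, so that 0 to 1 of the 9 passed with 1 array left out, 1 without both arrays numbered 1 and 3 with array weights. With 1 array left out, the difference of tbx-11 ran from -0.54 to -0.05 and that of mls-1 from -0.22 to -0.04. With the replicate number as a block (replicate block) none of the 8 T-box genes passed, at adjusted p-values of 0.0956 for tbx-9 to 0.723 for mls-1, and the calls of tbx-7 (0.0696), eya-1 (0.0534), elt-3 (0.0538) and vit-1 (0.0672) were lost. No label says that the replicate numbers mark a shared culture or day, so the numbers were not taken to pair the samples. Deviations of same-numbered arrays from their group means correlated with r of 0.20, 0.02 and 0.09, which does not settle whether they do. Mutant replicate 3 correlated best with wild type replicate 2, at 0.34. Over the other lists 3 genes fell and 7 rose. The falls numbered 1 with the block (cpg-2, not called without it, at -0.91 and an adjusted p of 0.0454), 1 with the pseudocount of 16 (elt-3), 23 without both arrays numbered 1, 26 with array weights, 0 with mutant replicates 2 and 3 averaged (added after the data were seen) and 0 to 11 with 1 array left out, where the highest was without mutant replicate 1. The rises numbered 4 with the pseudocount, 15 without both arrays numbered 1, 15 with array weights, 2 with those replicates averaged and 1 to 11 with 1 array left out. Of all probe sets 0.648% fell and 2.83% rose. With 1 array left out these shares were 0.0310% to 3.86% and 0.452% to 6.80%, highest without mutant replicate 1. Without both arrays numbered 1 they were 6.89% and 8.67%, with array weights 8.72% and 9.88%, and with mutant replicates 2 and 3 averaged 0.0266% and 0.461%. After median centring 1.29% fell, and the share of calls that were higher was 70.1% in place of 81.4%. Leaving out the dimmest 50% of probe sets removed tbx-37, mls-1 and mab-9, and 1 probe set per gene removed the dimmer one of tbx-2, so these have no value there. The causes of these differences were not tested.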
